A study of Sus scrofa with 6 samples.

Results

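The genes described here are the Notch receptors, the ligands that bind them and the best known genes that the pathway switches on, in porcine embryonic fibroblasts (PEFs) and in the porcine induced pluripotent stem cells (piPSCs) made from them. The members were taken by symbol from a table of 18007 genes: NOTCH1, NOTCH2, NOTCH3, JAG1, JAG2, DLL1, DLL3, HES1, HEY1 and HEY2. A row carried the symbol of 8 of these 10 names. NOTCH1 and JAG2 were not analysed here. The RNA of 6 cell lines was sequenced, namely 3 PEF lines (PEF5, PEF7 and PEF8), grown from the tips of the ears of E90 embryos of a Longwhite boar, a Large White in the study's methods, and a Meishan sow, and 3 piPSC lines (piPSC5, piPSC7 and piPSC8), each derived from the fibroblasts that share its number. The piPSCs had received a lentiviral, doxycycline-dependent cassette of Oct4, Sox2, Klf4 and c-Myc (OSKM) together with the M2rtTA transactivator, were induced in LF2i medium, and were picked as colonies onto mouse embryonic fibroblast feeders. The PEFs carried no cassette, so the cassette, the medium and the feeders all came with the change of cell state and cannot be told apart from it. The question was how transcription differed between the genetically matched fibroblasts and reprogrammed cells.

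Notch receptors are single-pass membrane proteins that are bound by Jagged (JAG) and Delta-like (DLL) ligands on a neighbouring cell. Binding lets proteases, gamma-secretase being the last to cut, release the intracellular domain, which enters the nucleus, joins the DNA-binding protein RBPJ and a Mastermind coactivator, and turns on genes of the HES and HEY families. These are basic helix-loop-helix repressors. The pathway is used in development to keep neighbouring cells in different states and to hold progenitors undifferentiated, and fibroblasts of the embryonic mesenchyme use several of its members.

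RBPJ recognises a short DNA element whose core is TGGGAA. The targets HEY2 and HES1, members read as pathway output, are shown first with that core. The letters TGGGAA were searched on both strands in the 250 bases before the first base of each gene as the table gives it, on Sscrofa11.1. They occurred before 4058 of 17989 genes (22.6%) and before 4 of the 8 members, NOTCH2, JAG1, HEY1 and HEY2. The match of HEY1, also a target, started 88 bases before the gene, and its sequence is not shown. Before HEY2 the core stood once and on the strand opposite to the gene, so it reads TTCCCA when the promoter is written in the direction of the gene. The stretch of HEY2 is chr1:37231385-37231634 on the minus strand, with the core starting 150 bases before the gene. No match was found in the 250 bases before HES1, whose row starts at base 131135530 of chromosome 13, 440 bases before the start in RefSeq. A pair of cores lay between these starts, 115 and 129 bases after the first base of the row and 325 and 311 bases before the start in RefSeq, both on the strand of the gene. These 440 bases were searched for HES1 alone, so the share of 22.6% does not apply to them. That stretch is chr13:131135640-131135669, and its cores begin 14 bases apart. The capitals mark the core in each sequence, and each is written 5′ to 3′ along its gene.
HEY2: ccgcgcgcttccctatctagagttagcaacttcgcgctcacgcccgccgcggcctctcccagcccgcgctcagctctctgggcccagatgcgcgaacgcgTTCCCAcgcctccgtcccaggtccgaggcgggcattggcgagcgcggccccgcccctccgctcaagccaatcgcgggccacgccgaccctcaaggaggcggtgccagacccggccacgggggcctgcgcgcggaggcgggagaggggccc
HES1: tactgTGGGAAagaaagttTGGGAAgtttc
A match is a description of letters and was not tested as a binding site.

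Values are fragments per kilobase of gene relative to the library's total (FPKM), so that levels can be set beside each other between genes. Fragments were recovered from the values, a step that was exact for 448 of 491 genes in a simulation, and the libraries held 11010629 to 17836510 fragments, the piPSC libraries being the shallower. A fragment of a gene of 1 kb was worth 0.0561 to 0.0908 FPKM. The fibroblast markers, such as the collagen genes COL1A1 and COL1A2, fell in 7 of 7 cases, with their summed level at 3980 to 7890 FPKM in PEFs and at 327, 267 and 85.6 FPKM in piPSC5, piPSC7 and piPSC8. Of the markers of pluripotent cells, NANOG, SALL4 and ESRRB had 0 to 6 fragments in any piPSC library, and the gene at the position of POU5F1 had 0, 2 and 1. SOX2, a pluripotency transcription factor, stood at 3.01, 2.49 and 0.129 FPKM and LIN28B, an RNA-binding protein of early cells, at 2.51, 0.281 and 8.90 FPKM in piPSC5, piPSC7 and piPSC8. The markers therefore went with the fibroblast label in PEFs, while most of the endogenous markers of pluripotent cells were near 0 in the piPSCs. The PEF lines are described as male in the study. Fragments of the Y-linked gene DDX3Y were 0 in the PEF and the piPSC library of lines 5 and 7, against 3439 in PEF8 and 4207 in piPSC8. Lines 5 and 7 are at odds with that description by this gene, and line 8 stands apart. Whether sex differs between the lines was not tested. Calls that change without the libraries of line 8 are named below.

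Over all genes, 12428 had a mean of at least 0.5 FPKM and were tested with limma on log2(FPKM + 1). A gene was called at a Benjamini-Hochberg adjusted p under 0.05 and a change of at least 2-fold. This rule called 4575 genes (36.8%), of which 2505 were higher (20.2%) and 2070 lower (16.7%) in piPSCs. The median change of all tested genes was 0.20 on the log2 scale. Rescaling the libraries to their median ratio moved that median to -0.01 and the split to 1879 higher and 2511 lower, and rescaling to equal sums moved it to -0.06 with 1986 higher and 2815 lower. Of the 8 members, 7 passed the filter on low values and DLL3 did not. The rule called 2 of these 7 (28.6%), both lower in piPSCs, namely the ligand DLL1 and the target HEY2. An adjusted p under 0.05 alone was reached by 2 of the 7, against 51.7% of all tested genes. With the line as a block the rule called 1, HEY2. All 3 lines moved by 2-fold or more in 1 direction for 1 of the 7, HEY2, against 24.7% of all tested genes. The median change of the 7 was -0.33. The values of PEFs and piPSCs did not overlap for 3 members, DLL1, HES1 and HEY2, all lower in piPSCs. Over all tested genes this held for 64.1%, with 26.8% lower and 37.3% higher in piPSCs. In bulk RNA, fewer cells that express a gene and less RNA in each cell cannot be told apart.

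**Figure D1:**
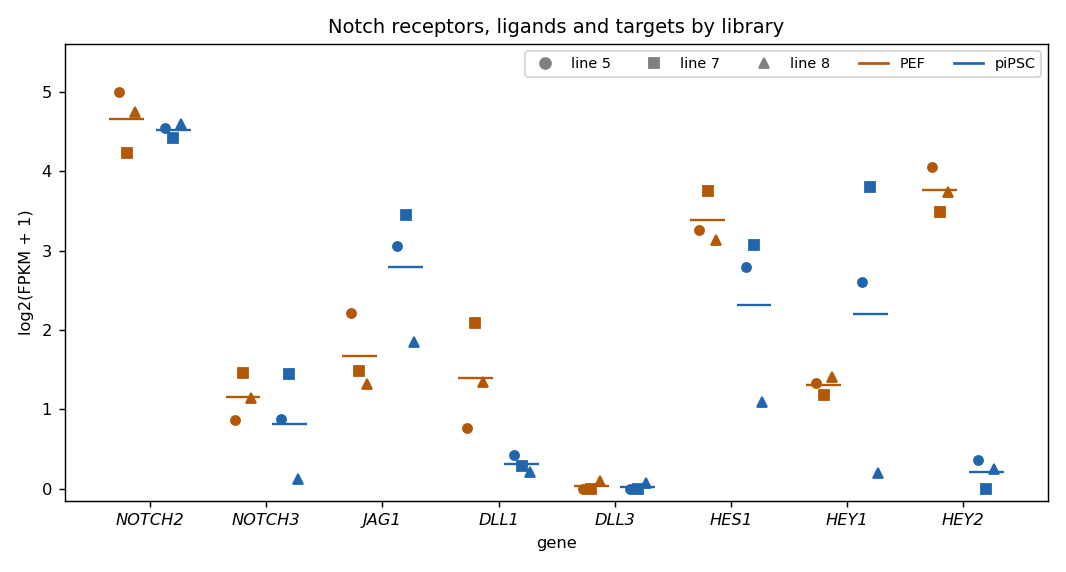
Levels of the 8 members in each library on the log2(FPKM + 1) scale. Each point is 1 library, its shape gives the line, its colour the group, and the bar is the group's mean. HEY2 in the piPSCs lies between 0 and 0.291 FPKM, below every PEF library, while HEY1 is high in piPSC5 and piPSC7 and low in piPSC8.

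NOTCH2 was the higher of the 2 member receptors with a row in both cell types, NOTCH1 not being analysed here. Its row (ENSSSCG00000006709, chr4:100951359-101150179, plus strand) read 30.9, 17.7 and 25.9 FPKM in PEF5, PEF7 and PEF8, and 22.3, 20.4 and 23.1 FPKM in piPSC5, piPSC7 and piPSC8. All piPSC values lay within the range of the PEFs, and at 2806 to 6373 fragments per library the counting error was small. The means were 24.8 ± 6.66 and 22.0 ± 1.41 FPKM (SD, n = 3 each), with a log2 fold change of -0.14 (95% interval -0.67 to 0.39, limma, adjusted p = 0.623). The interval leaves out a 2-fold change in either direction. NOTCH2 was the highest of the 8 members in all 6 libraries.

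NOTCH3, a receptor known from the mural cells of vessels and from mesenchyme, was expressed far below NOTCH2. Its row (ENSSSCG00000025176, chr2:62364508-62405996, plus strand) read 0.817, 1.74 and 1.21 FPKM in PEF5, PEF7 and PEF8 and 0.843, 1.73 and 0.0928 FPKM in piPSC5, piPSC7 and piPSC8. Lines 5 and 7 kept almost the level of their fibroblasts, with log2 ratios of (FPKM + 1) of 0.02 and -0.01, whereas piPSC8 held 12 fragments against 215 in PEF8, a log2 ratio of -1.02. The group difference of -0.33 (95% interval -1.24 to 0.58) was not called (limma, adjusted p = 0.486), and without piPSC8 it was 0.01. Of the summed FPKM of both receptors, NOTCH2 made up 97.4%, 91.1% and 95.5% in PEF5, PEF7 and PEF8 and 96.4%, 92.2% and 99.6% in piPSC5, piPSC7 and piPSC8. The receptor sum was 19.4 to 31.7 FPKM in PEFs and 22.1 to 23.2 FPKM in piPSCs, so the ranges overlapped.

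Among the member ligands with a row, DLL1 fell and JAG1 took the larger share, JAG2 not being analysed here. DLL1, a Delta-like ligand of somite and neural development, has its row (ENSSSCG00000027726) at chr1:198992-211342 on the plus strand. It read 0.697, 3.26 and 1.55 FPKM in PEF5, PEF7 and PEF8, and 0.344, 0.218 and 0.157 FPKM in piPSC5, piPSC7 and piPSC8, which were 72, 315 and 136 against 30, 15 and 10 fragments. Each piPSC library was below every PEF library, and PEF5 was the nearest to the piPSCs. The mean fell from 1.83 ± 1.3 to 0.240 ± 0.0956 FPKM (SD, n = 3), 7.65-fold, and the log2 fold change of (FPKM + 1) was -1.09 with an SE of 0.36 (adjusted p = 0.0421 in limma). This scale understates changes of genes at such low levels. With the line as a block the adjusted p was 0.0680 and the call was lost. It was also lost without any 1 of PEF7, PEF8, piPSC5, piPSC7 and piPSC8 (adjusted p of 0.0793 to 0.0915), and held without PEF5 (adjusted p = 0.0200). Without both libraries of line 5, 7 or 8 the adjusted p was 0.0589, 0.143 and 0.133.

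JAG1, the Jagged ligand most widely used outside the nervous system, has its row (ENSSSCG00000007067) at chr17:19588020-19630085 on the minus strand. It read 3.65, 1.79 and 1.5 FPKM in PEF5, PEF7 and PEF8 and 7.35, 9.90 and 2.61 FPKM in piPSC5, piPSC7 and piPSC8. It was higher in the piPSC library of each line, with log2 ratios of (FPKM + 1) of 0.84, 1.97 and 0.53, but piPSC8 lay below PEF5, so the groups overlapped. The mean went from 2.31 ± 1.17 to 6.62 ± 3.70 FPKM (SD, n = 3), with a log2 fold change of 1.11 with an SE of 0.46 (adjusted p = 0.0833 in limma), which was not called. Without piPSC8 the change was 1.58 and was called (adjusted p = 0.0143), and without both libraries of line 8 it was 1.40 (adjusted p = 0.0340).

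DLL3, a divergent Delta-like protein that acts inside the cell, has its row (ENSSSCG00000002987) at chr6:48147834-48154909 on the plus strand. It had 2 fragments in PEF8, 1 in piPSC8 and 0 in the other libraries, below the 3 fragments that a count of 0 allows, and was not tested. Shares were taken over the summed FPKM of the 3 member ligands with a row, JAG1, DLL1 and DLL3. JAG2 and ligands outside the members, such as DNER, were not in this sum. JAG1 made up 84.0%, 35.5% and 48.0% of it in PEF5, PEF7 and PEF8, and 95.5%, 97.8% and 92.7% in piPSC5, piPSC7 and piPSC8. DLL1 held 16.0%, 64.5% and 49.7% of it in the PEFs and 4.48%, 2.15% and 5.57% in the piPSCs. The shares of the groups did not overlap for either ligand. DLL3 held at most 2.27% of the sum, so the share of either of the others nearly fixes that of the other. PEF5 stood apart from the other fibroblasts in its high share of JAG1. The sum of these 3 ligands was 3.12 to 5.05 FPKM in PEFs and 7.69, 10.1 and 2.82 FPKM in piPSC5, piPSC7 and piPSC8, so piPSC8 was below every PEF library in the sum.

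**Figure D2:**
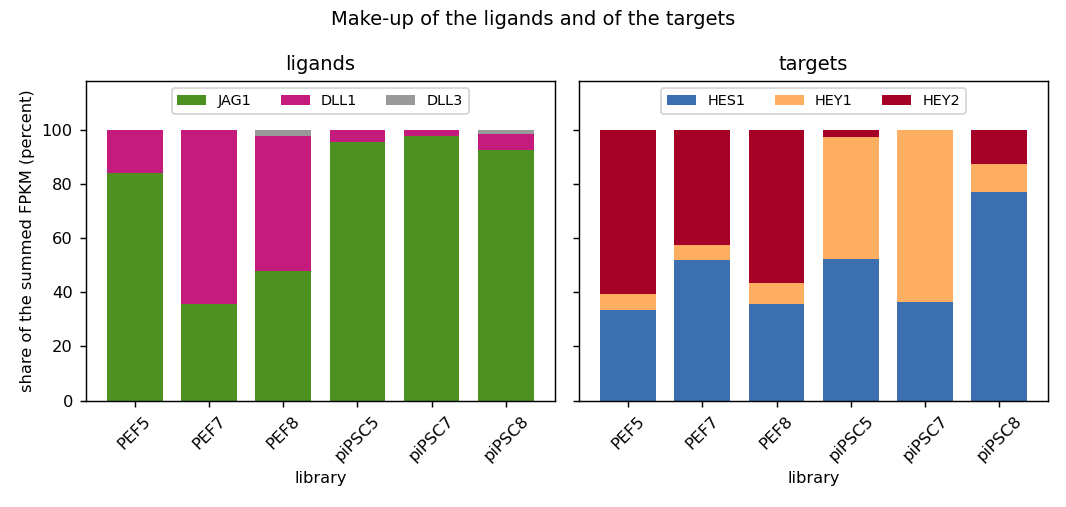
Make-up of the ligands JAG1, DLL1 and DLL3 (left) and of the targets HES1, HEY1 and HEY2 (right) in each library, as percent of their summed FPKM. JAG2 was not analysed here. JAG1 makes up 92.7% to 97.8% of these ligands in the piPSCs, and HEY2 falls from 42.6% to 60.7% of the targets in the PEFs to at most 12.8% in the piPSCs.

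The target genes did not move together in lines 5 and 7, while HES1, HEY1 and HEY2 were each lower in piPSC8 than in PEF8. HEY2, a repressor known from the heart and from arteries, showed the largest change among the members. Its row (ENSSSCG00000004223, chr1:37217756-37231384, minus strand) read 15.6, 10.2 and 12.3 FPKM in PEF5, PEF7 and PEF8, and 0.291, 0 and 0.190 FPKM in piPSC5, piPSC7 and piPSC8. In fragments these were 1329, 814 and 894 against 21, 0 and 10. HEY2 was among the more expressed members in every PEF library and near the counting floor in every piPSC library. The mean fell from 12.7 ± 2.71 to 0.160 ± 0.148 FPKM (SD, n = 3), 79.1-fold, and the log2 fold change of (FPKM + 1) was -3.55 with an SE of 0.23 (95% interval -4.11 to -2.99, adjusted p = 0.000217 in limma). The log2 ratios of the lines were -3.68, -3.48 and -3.49, so each line alone showed the fall. Near 0 FPKM this ratio is set mainly by the PEF level, and with a pseudocount of 0.1 the ratios were -5.32, -6.68 and -5.42. HEY2 was the member whose call held in all 17 alternative fits.

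HEY1, the closest relative of HEY2 among the members and also a repressor, went in opposite directions in different lines. Its row (ENSSSCG00000006159, chr4:56859606-56866039, plus strand) read 1.51, 1.27 and 1.66 FPKM in PEF5, PEF7 and PEF8, and 5.10, 12.9 and 0.151 FPKM in piPSC5, piPSC7 and piPSC8. The fibroblasts were alike, while the piPSCs spread on both sides of them, with 370 and 741 fragments in piPSC5 and piPSC7 and 8 in piPSC8. The log2 ratios of (FPKM + 1) were 1.28 in line 5, 2.62 in line 7 and -1.21 in line 8. A pattern of at least 2-fold higher in 1 line and at least 2-fold lower in another was seen in 164 of the 12428 tested genes (1.32%), and HEY1 was the member that showed it. The group difference of 0.90 (95% interval -1.12 to 2.91) was not called (limma, adjusted p = 0.398). Without piPSC8 it was 1.90 and was called (adjusted p = 0.0120), without both libraries of line 8 it was 1.95 (adjusted p = 0.0288), and without piPSC7 it was 0.10.

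HES1, the target most often read as a measure of Notch activity, was lower in the piPSCs of each line, by unequal amounts. Its row (ENSSSCG00000031356, chr13:131135530-131140304, plus strand) read 8.56, 12.5 and 7.80 FPKM in PEF5, PEF7 and PEF8, and 5.91, 7.37 and 1.14 FPKM in piPSC5, piPSC7 and piPSC8. The groups did not overlap, although piPSC7 came close to PEF8, and piPSC8 was the lowest with 47 fragments. The log2 ratios of (FPKM + 1) were -0.47, -0.69 and -2.04 in lines 5, 7 and 8. The mean was 9.60 ± 2.50 FPKM in PEFs and 4.81 ± 3.25 FPKM in piPSCs (SD, n = 3), and the log2 fold change of -1.06 (95% interval -2.31 to 0.19) was not called (limma, adjusted p = 0.129). Without piPSC8 it was -0.45.

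**Figure D3:**
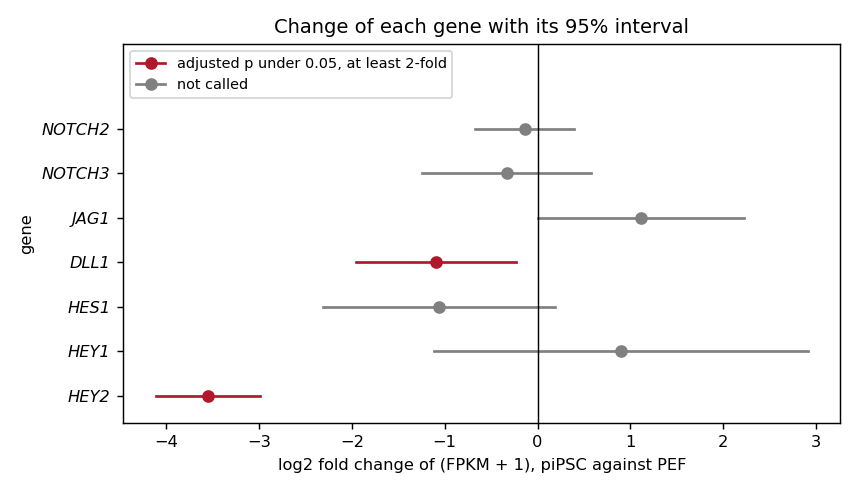
Log2 fold change of (FPKM + 1) of piPSCs against PEFs for the 7 members tested, with 95% intervals from limma. DLL1 and HEY2 (red) were called, and the interval of HEY1 runs from -1.12 to 2.91.

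Set beside each other, HEY1 and HEY2 exchanged ranks in lines 5 and 7 and not in line 8. In the PEFs the FPKM of HEY2 was 10.3, 8.03 and 7.43 times that of HEY1 in PEF5, PEF7 and PEF8, whereas in piPSC5 HEY1 was 17.5 times HEY2, in piPSC7 HEY2 had no fragment, and in piPSC8 both were low with a ratio of HEY2 to HEY1 of 1.26. HEY1 made up 5.30% to 7.61% of the summed FPKM of the targets in PEFs and 45.1%, 63.7% and 10.2% in piPSC5, piPSC7 and piPSC8. The sum of the targets was 25.6, 23.9 and 21.8 FPKM in PEF5, PEF7 and PEF8 and 11.3, 20.3 and 1.48 FPKM in piPSC5, piPSC7 and piPSC8. The sum was thus lower in the piPSC library of each line, least so in line 7. In PEF5 and PEF8 the order from the top was NOTCH2, HEY2 and HES1, and in PEF7 HES1 stood above HEY2; the ranges of HES1 (7.80 to 12.5 FPKM) and HEY2 (10.2 to 15.6 FPKM) over the PEFs overlapped. In piPSC5 and piPSC8 the order was NOTCH2, JAG1 and HES1, and in piPSC7 it was NOTCH2, HEY1 and JAG1.

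**Figure D4:**
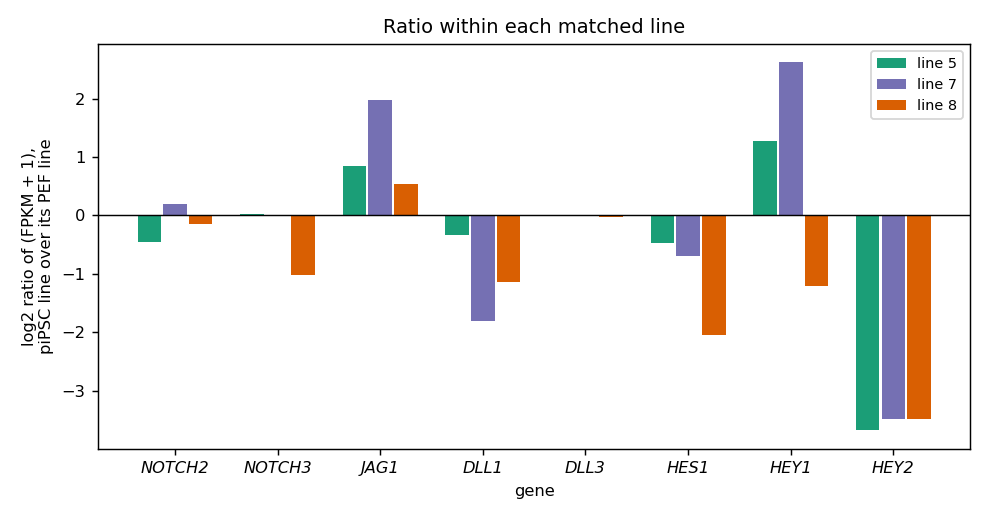
Log2 ratio of (FPKM + 1) of each piPSC line over the PEF line it was made from. HEY2 stood at -3.68, -3.48 and -3.49 in lines 5, 7 and 8, where its piPSC levels are near 0, while HEY1 stood at 1.28 and 2.62 in lines 5 and 7 and at -1.21 in line 8.

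Line 8 was the lowest of the piPSCs in JAG1, DLL1, NOTCH3, HES1 and HEY1, and not in NOTCH2 or HEY2. This library also had the lowest summed level of fibroblast markers (85.6 FPKM), the lowest SOX2 (0.129 FPKM), the highest LIN28B (8.90 FPKM) and the fewest fragments. Among the piPSCs it alone had fragments of DDX3Y. The other library that stood high, piPSC7, had a summed level of the keratinocyte markers KRT5, KRT14 and TP63 of 3.85 FPKM, of which KRT14 gave 3.04, against 0.190 and 0.225 FPKM in piPSC5 and piPSC8 and 0.124 to 0.5 FPKM in PEFs. TP63, which defines these cells, was at 0 in all piPSCs. The endothelial markers PECAM1, CDH5, KDR and TEK summed to 0.5 to 2.57 FPKM in PEFs and 0.380, 1.13 and 0.0316 FPKM in piPSC5, piPSC7 and piPSC8, with CDH5 at 0 in all piPSCs. PECAM1 made up most of the PEF sum and read 0.0316 to 0.215 FPKM in piPSCs, while TEK was at 0 in all PEFs and read 0.23, 0.918 and 0 FPKM in piPSC5, piPSC7 and piPSC8, high and low in the same lines as HEY1. Single markers of other types were called as well, the epithelial CLDN6, the chondrocyte SOX9 and the leukocyte CD14 lower and the neural FABP7 higher. No other marker of these lists was called. The neural PAX6 and NES went the other way from FABP7, with changes of -0.35 and -1.31. The other 4 epithelial and 2 chondrocyte markers were under the filter. CD14 read 9.20 to 21.9 FPKM in PEFs and 0.110 to 0.239 FPKM in piPSCs, and FABP7 was at 0 in PEFs and at 2.07, 0.231 and 2.45 FPKM in piPSC5, piPSC7 and piPSC8. The myogenic markers summed to at most 0.310 FPKM in any library. The part of any of these differences in the values of the members was not tested.

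The rest of the pathway was followed in a list of 49 other genes, of which 47 had a row and 39 were tested. The rule called 9 of the 39 (23.1%), 2 higher and 7 lower in piPSCs, beside the 36.8% of all genes given above. The median change of the 39 was -0.18. With the line as a block 7 were called, LFNG (adjusted p = 0.0594) and HES4 (adjusted p = 0.0712) being lost, and without both libraries of line 8 the rule also called 7. The groups did not overlap for 16 of the 39, 5 higher and 11 lower, beside the 64.1% of all tested genes (37.3% higher and 26.8% lower).

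Of the 8 tested genes for the enzymes that prepare and cut the receptor, or for their subunits, 1 was called, beside 36.8% of all tested genes. FURIN, the convertase that makes the first cut of the receptor in the Golgi, read 29.9, 25.5 and 25.8 FPKM in PEF5, PEF7 and PEF8 and 5.43, 4.95 and 3.60 FPKM in piPSC5, piPSC7 and piPSC8. It fell by 2.32 on the log2 scale (limma, adjusted p = 0.000362). The groups were far apart beside their own spread. PSEN2, a subunit of gamma-secretase, read 5.56 to 6.47 FPKM in PEFs and 4.56 to 8.2 FPKM in piPSCs (change of 0.02, 95% interval -0.53 to 0.57), and its groups overlapped. PSENEN and NCSTN, other subunits of the enzyme, passed the adjusted p below 2-fold, with changes of -0.81 (adjusted p = 0.00740) and -0.54 (adjusted p = 0.0291). PSENEN passed 2-fold and was called under both rescalings (-1.07 and -1.15), and with the line as a block the adjusted p of NCSTN was 0.0684. The remaining genes of this group, ADAM10, ADAM17, APH1A and APH1B, were not called, with changes of -0.34 to -0.16.

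Of the genes that act on the ligands, NEURL1, a ubiquitin ligase of the Neuralized type, read 10.1, 12.1 and 9.23 FPKM in PEF5, PEF7 and PEF8 and 0.606, 0.659 and 1.62 FPKM in piPSC5, piPSC7 and piPSC8. It fell by 2.58 on the log2 scale (limma, adjusted p = 0.000659). MIB1, the ligase that most cells use to activate Notch ligands by endocytosis, read 13.9, 12.4 and 7.83 FPKM in the PEFs and 27.6, 18.8 and 22.0 FPKM in the piPSCs. Its change of 0.97 passed the adjusted p (limma, 0.0185) and was just short of 2-fold. It was called with a pseudocount of 0.1 (1.02) and with limma voom (1.03). The same held without PEF5 (1.12), without PEF7 (1.04) and without piPSC7 (1.09). Its adjusted p missed the threshold under both rescalings (0.0574 and 0.0801), without piPSC5 (0.0666) and without each line (0.0556 to 0.0809). MIB2 was not called (change of -0.42, adjusted p = 0.131).

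The Fringe glycosyltransferases add a sugar to Notch that shifts its response between Delta-like and Jagged ligands, and each of the 3 behaved in its own way. LFNG read 2.43, 2.43 and 5.22 FPKM in PEF5, PEF7 and PEF8 and 1.03, 0.891 and 0.0401 FPKM in piPSC5, piPSC7 and piPSC8, and fell by 1.40 (limma, adjusted p = 0.0205), a call that was lost without PEF8 (adjusted p = 0.0520), without line 5 (adjusted p = 0.0734), without line 7 (adjusted p = 0.0660) and, at -0.81, without line 8. RFNG, the highest of them in the PEFs, read 17.9 to 29.8 FPKM there and 14.3 to 15.1 FPKM in the piPSCs, a change of -0.63 (adjusted p = 0.0408) below 2-fold, whose adjusted p was 0.0647 with the line as a block. MFNG had 1, 0 and 4 fragments in the PEFs and 31, 2064 and 43 in piPSC5, piPSC7 and piPSC8. Its levels in the piPSCs were 1.00, 84.3 and 1.90 FPKM, so a single library held nearly all of it, and the change of 2.91 (95% interval -0.32 to 6.14) was not called (limma, adjusted p = 0.112). Without piPSC7 the change was 1.2 and was called (adjusted p = 0.0157), as it was without both libraries of line 7 (1.16, adjusted p = 0.0495). With a pseudocount of 0.1 on all 6 libraries it was 5.32 and was called (limma, adjusted p = 0.0311). POFUT1 and POGLUT1, which add the first sugars to the receptor, were not called, and their changes of 0.24 and 0.18 turned below 0 under both rescalings.

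None of the 5 genes of the nuclear complex was called, too few for a reading against the 36.8% of all tested genes. RBPJ read 8.74, 6.47 and 5.64 FPKM in PEF5, PEF7 and PEF8 and 5.69, 4.81 and 4.33 FPKM in piPSC5, piPSC7 and piPSC8, lower in each line with overlapping groups (change of -0.41, limma, adjusted p = 0.153). The Mastermind coactivators MAML1, MAML2 and MAML3 changed by -0.05, -0.04 and 0.35 and SNW1, a coregulator of RBPJ, by 0.30. The signs of the 3 Mastermind genes turned when single libraries or line 8 were left out, and that of SNW1 when the libraries were rescaled to equal sums. Of 6 corepressors 1 was called, SPEN, which binds RBPJ and represses its targets. It read 3.82, 2.99 and 5.49 FPKM in the PEFs and 10.6, 7.84 and 9.35 FPKM in the piPSCs, a rise of 1.03 (limma, adjusted p = 0.0122) that stood below 2-fold under both rescalings (0.80 and 0.83), without PEF7 (0.87), without piPSC5 (0.94), without line 5 (0.91) and without line 7 (0.97). The other 5 corepressors on the list, CIR1 and TLE1 to TLE4, ran from -0.89 (TLE2) to 0.58 (TLE1), and TLE2 was called lower without piPSC7 (-1.27, adjusted p = 0.0176).

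Of the 8 tested genes grouped here as inhibitors and turnover genes 4 were called, 1 higher and 3 lower, beside 36.8% of all tested genes. How each of them, the Deltex genes included, acts on the signal in these cells was not tested. The difference between these shares was not tested. FBXW7, the F-box protein that marks the intracellular domain of Notch, among other proteins, for degradation, rose from 3.81, 2.25 and 4.07 FPKM in PEF5, PEF7 and PEF8 to 11.3, 11.8 and 8.78 FPKM in piPSC5, piPSC7 and piPSC8 (log2 fold change of 1.43, limma, adjusted p = 0.00368). NUMBL, a relative of the Notch inhibitor NUMB, fell by 1.06 (adjusted p = 0.0107), and the Deltex ubiquitin ligases DTX2 and DTX3 fell by 1.18 (adjusted p = 0.0109) and 1.60 (adjusted p = 0.00197). NUMBL stood below 2-fold without PEF7 (-0.93) and without piPSC5 (-0.88), and DTX2 without PEF8 (-0.97) and without line 8 (-0.83). Without both libraries of line 5, FBXW7 (adjusted p = 0.0506), NUMBL (0.0723) and DTX2 (0.0605) lost their calls, as did DTX2 without line 7 (0.0531). DTX4, another Deltex gene, repeated the pattern of HEY1. It read 0.353, 0.303 and 1.68 FPKM in the PEFs and 12.1, 6.59 and 0.0557 FPKM in piPSC5, piPSC7 and piPSC8, and its change of 1.49 was not called (adjusted p = 0.210), while without piPSC8 it was 2.57 (adjusted p = 0.00712) and without line 8 it was 2.91 (adjusted p = 0.00681). NUMB, ITCH and DTX3L were not called, with changes of 0.07, -0.06 and -0.91, and the signs of NUMB and ITCH turned under some alternatives.

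Of the 3 tested HES genes listed as targets outside the members 1 was called, HES4. Whether each of them responds to Notch was not tested. It read 1.3, 0.519 and 3.72 FPKM in PEF5, PEF7 and PEF8 and 0.101, 0.128 and 0 FPKM in piPSC5, piPSC7 and piPSC8, with at most 7 fragments in a piPSC library, and fell by 1.24 (limma, adjusted p = 0.0464). That call held without PEF7 among the libraries left out and was lost without any other (adjusted p of 0.0512 to 0.103), and it was also lost without line 5 (adjusted p = 0.183) and line 8 (adjusted p = 0.0823). HES6, which antagonises HES1 in neural cells, read 15.9 and 14.5 FPKM in piPSC5 and piPSC7 and 2.77 FPKM in piPSC8, against 7.96 to 9.31 FPKM in the PEFs (change of 0.03, adjusted p = 0.967). HES6 thus joined HEY1 and DTX4 among the genes that were higher in lines 5 and 7 and lower in line 8, with log2 ratios of 0.71, 0.63 and -1.25. Of the other receptors and ligands, DNER, a neural protein described as a Notch ligand, read 10.2, 6.53 and 10.8 FPKM in the PEFs and 0.863, 9.71 and 3.05 FPKM in the piPSCs and was not called (change of -1.21, adjusted p = 0.138), and without piPSC7 it was (-1.86, adjusted p = 0.0162). NOTCH4, DLL4, DLK1 and DLK2 stayed under 0.5 FPKM in every library and were not tested. HES7 was not called (change of -0.26, adjusted p = 0.662), NEURL1B, DTX1, HES2 and HEYL were under the filter as well, and HES5 and NRARP were not analysed here.

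**Figure D5:**
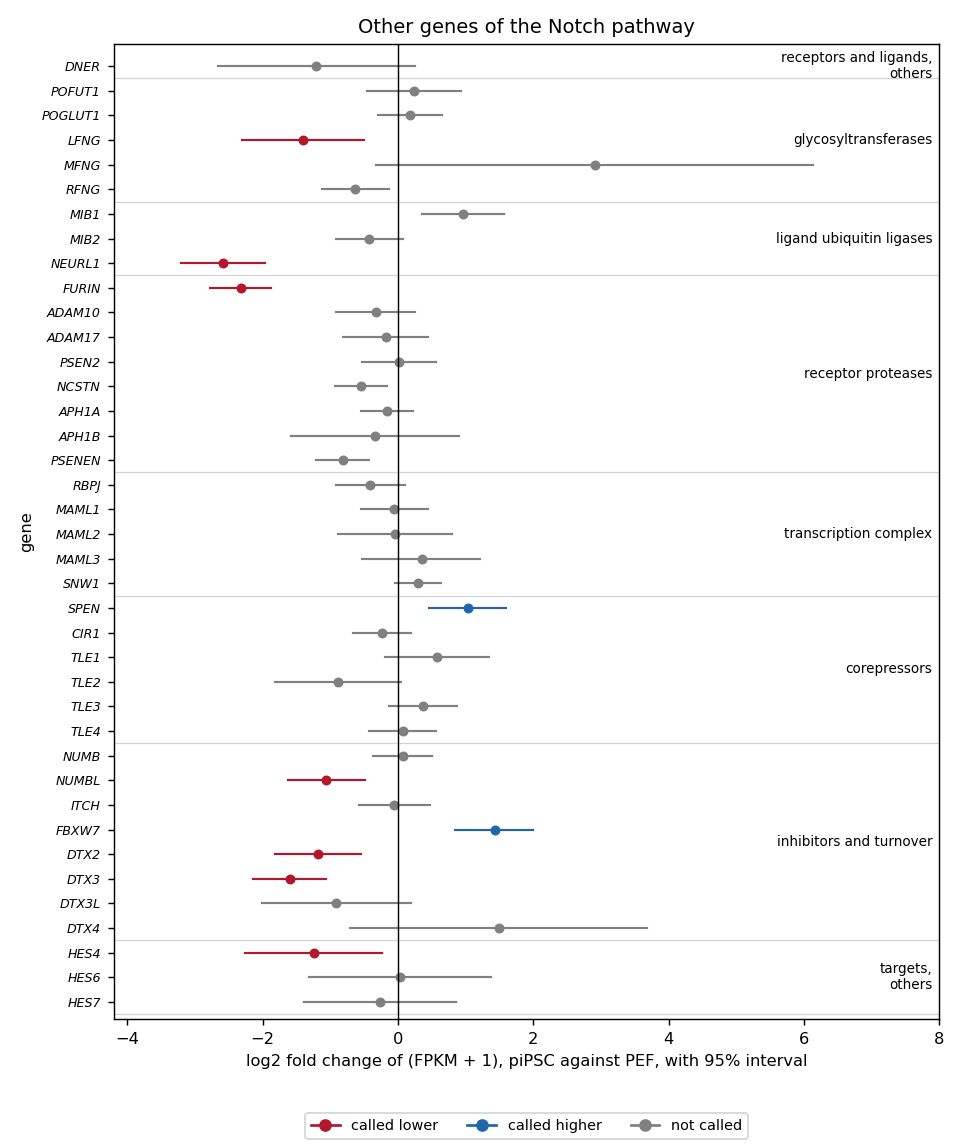
Log2 fold change of (FPKM + 1) of piPSCs against PEFs for the 39 other pathway genes tested, by role, with 95% intervals from limma. The 7 genes called lower are red and the 2 called higher blue, and none of the transcription complex was called.

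For each member the gene with the most similar profile was found among 11411 genes, as the smallest root mean square difference over the 6 libraries between log2(FPKM + 1) values taken from each gene's own mean. For HEY2 it was LMO7, a LIM domain protein of cell junctions, at a difference of 0.115, with 15.7, 9.0 and 12.6 FPKM in the PEFs and at most 0.0786 FPKM in a piPSC library. For HEY1 it was GNAZ, a G protein subunit, at 0.238, and it was the only gene within 0.25 of HEY1, against 602 genes within 0.25 of NOTCH2. GNAZ read 7.45, 4.34 and 5.14 FPKM in the PEFs and 16.4, 27.4 and 1.66 FPKM in piPSC5, piPSC7 and piPSC8. The nearest profile to NOTCH2 was that of KIF1B, a kinesin motor, at 0.069, to NOTCH3 that of ELMOD3 at 0.104, to DLL1 that of PODNL1 at 0.085, and to JAG1 that of SCARNA8, a small nuclear RNA at 0 to 2.57 FPKM, at 0.174. The nearest to HES1, at 0.144, is listed in the table as 5-Sep (ENSSSCG00000010128). The likeness is over 6 libraries of 2 groups and says nothing of shared control.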

How the data were processed

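RNA-seq of 3 PEF and 3 piPSC lines was analysed. Poly-A libraries gave paired 150 bp reads. The authors deposited 1 table with an FPKM value for each gene. The submitters' processing notes name Bowtie2 2.2.3, HISAT2 2.1.0 and HTSeq 0.6.0 and the build Sscrofa11.1, without their roles. The library kit does not mark strand, so overlapping genes on opposite strands cannot be told apart, and reads from the mouse feeders cannot be told apart in a table of pig genes.

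The deposited FPKM were whole multiples of 1 fragment (tolerance 0.001), and fragments were recovered for all 18007 genes, with totals of 11010629 to 17836510 per library. In a simulation the recovery was exact for 448 of 491 genes, and a divisor shared by all fragments of a gene (56 of the 491) is a limit of the recovery. With 0 fragments seen, up to 3 are allowed for, and such limits cover the counting error only. Groups were compared with limma 3.58.1 in R 4.3.3 (lmFit, eBayes with a trend, unpaired, the form of test that the study's statistics section names for its data in general) on log2(FPKM + 1). Genes whose FPKM averaged under 0.5 were left out, which kept 12428. P-values were two-sided and adjusted after Benjamini and Hochberg. The study itself compared each piPSC line with its own PEF line, and ratios of each line are given for the members. Tested on simulated data of 12428 genes with 200 changed by 4-fold, the fit called 190 of the 200 and 7 others. The simulation gave every gene the same variability, and its changed genes were not drawn from the lowest levels. Its share does not carry over to genes that spread widely between lines, such as HEY1 and MFNG. An exact permutation test of 3 against 3 lines cannot go below 0.1, so none is given. The samples are separate cell lines. The number of a piPSC line is that of its parent fibroblasts, which pairs the libraries. Correlations of the deviations from each group's mean were 0.0921, 0.0946 and 0.08 between libraries of a shared number and -0.121 to 0.0553 between the others. Alternatives were the line as a block, a pseudocount of 0.1, other filters, rescaled libraries, no trend, limma voom on the recovered fragments, and each library left out. The members, the list of pathway genes and the markers were chosen with earlier results of these data known. The genes named are the members, the pathway genes called, those needed to account for the rest, and the gene nearest in profile to each member. POU5F1 was matched by its position in RefSeq. Promoters were read from the Sscrofa11.1 genome of RefSeq with pysam 0.24.0 at the starts the table gives. Some genes and sequences are not reported here.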

Additional observations from a re-analysis of the deposited data

Results flagged for a closer look

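In 3 genes among the 7 members and 39 pathway genes tested, 1 line was at least 2-fold higher and another at least 2-fold lower. Over all tested genes this held for 164 of 12428 (1.32%). The difference between lines was not tested, since each line has 1 library of each kind. HEY1 had log2 ratios of (FPKM + 1) of 1.28, 2.62 and -1.21 in lines 5, 7 and 8. DTX4 had 3.27, 2.54 and -1.34. The gamma-secretase subunit APH1B had -0.43, 1.06 and -1.64, with 3.89, 11.3 and 1.90 FPKM in piPSC5, piPSC7 and piPSC8 against 5.61, 4.89 and 8.04 FPKM in PEF5, PEF7 and PEF8. In these 3 genes the library piPSC8 was the lowest of all 6.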

How the results depend on the processing

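HEY2 was called under all 17 alternatives, with log2 fold changes of -7.25 to -3.40. The members called were 2, and 1 (HEY2) with the line as a replicate block, with no filter on low values and with the filter at 1 FPKM, and 1 to 3 when single libraries were left out. DLL1 lost its call with the block (adjusted p = 0.0680), with no filter (0.0547) and with the stricter filter (0.0504), and had 0.0200 to 0.143 over all alternatives. The block ended no other call of a member, and among the pathway genes those of LFNG and HES4. Leaving out both libraries of a line was chosen after seeing the data. Without line 5 the rule called 2996 of all genes, 1 member and 3 pathway genes, against at most 4639 of all genes and 12 pathway genes over the libraries and lines left out. Without line 8 it called 3 members, HEY1, HEY2 and JAG1.

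None of the genes whose sign turned was called in the unchanged fit. When single libraries or lines were left out, the log2 fold change ran from -0.35 to 0.03 for NOTCH2, -0.65 to 0.01 for NOTCH3, -0.05 to 0.55 for POFUT1, -0.44 to 0.01 for ADAM17, -0.21 to 0.25 for PSEN2, -1.04 to 0.31 for APH1B, -0.16 to 0.10 for MAML1, -0.42 to 0.31 for MAML2, -0.06 to 0.66 for MAML3, -0.05 to 0.28 for TLE4, -0.12 to 0.19 for NUMB, -0.18 to 0.11 for ITCH, -0.35 to 0.73 for HES6 and -0.53 to 0.23 for HES7. With the libraries set to their median ratio, and then to equal sums, it was -0.01 and -0.06 for POFUT1, -0.07 and -0.13 for POGLUT1, -0.21 and -0.28 for PSEN2, -0.13 and -0.20 for TLE4, -0.17 and -0.23 for NUMB and -0.21 and -0.30 for HES6. SNW1 was at -0.02 with equal sums and HES6 at -0.02 with a pseudocount of 0.1. The causes were not tested. Depth limits DLL1, HEY2 and HES4 in the piPSCs and DLL3 throughout, where few fragments stand behind a value. It also limits single values of piPSC8, such as those of LFNG and TLE2 (1 fragment each), DTX4 (4), HEY1 (8) and NOTCH3 (12).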
